A study of Homo sapiens with 6 samples.

Results

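HT29 is an established human colorectal adenocarcinoma line, and the values described here are those of its untreated cells, which make up 2 of the 6 RNA-seq libraries of the series. These cells were wild type by their label, which does not list the mutations of the tumour line. They were kept for 48 h in control medium and were harvested beside cultures depleted of histidine or of tryptophan, which were not used here. The members are the 2 libraries labelled untreated, numbered 1 and 2, and every protein-coding gene with a matched transcript length was ranked. The labels do not state whether the 2 libraries came from separate cultures, so the spread between them may be technical. A cell line is a dividing population without stroma, and the base of the control medium is not given for the RNA-seq cultures, though full RPMI medium was the control in a protein experiment of the study, so the values describe this culture and not colon tissue.

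The lining of the colon is renewed from stem cells at the crypt base that depend on WNT signals, and their daughters become absorptive colonocytes or secretory cells, among them mucus-producing goblet cells, hormone-producing enteroendocrine cells and chemosensory tuft cells. Transcription factors of the CDX, HNF, GATA, FOXA and KLF groups give intestinal cells their identity. Most colorectal tumours activate the WNT pathway through loss of APC and the RAS to ERK pathway through mutated RAS or RAF genes, and they ferment glucose to lactate at a high rate.

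Untreated HT29 cells transcribed the core machinery of translation, respiration, secretion and epithelial adhesion at high levels. Many intestinal regulators were on, and the goblet and secreted list (21 of 30 on) was led by LYZ, SPINK1 and AGR2. The lists of absorptive (13 of 38) and enteroendocrine cells (2 of 27) were on below the 56.3% of all protein-coding genes. So were the Paneth list (4 of 16), the tuft cell list (4 of 14) and the membrane mucins (4 of 10). Levels are given as normalised counts per kb: reads per gene, divided by the library's size factor and by the length of the canonical transcript in kb, with library 1 named before library 2 (n = 2 throughout). A gene was called on at a share of at least 1 ppm (1 part in 1000000) of the summed level of all genes in both libraries, which corresponds to 23.5 and 24.1 normalised counts per kb. It was called absent at 3 or fewer reads in each library and trace in between. The libraries held 46390819 and 52607332 reads, so a gene with a 2 kb transcript at the limit of 1 ppm had 43.4 and 48.7 reads, and absence means a share below 0.0692 and 0.0616 ppm for such a gene. These limits cover counting error only.

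Of 19892 protein-coding genes, 11190 were on (56.3%), 2940 were at trace level and 5762 were absent (29.0%), 4017 of these without a read in both libraries. Among the genes on, 1505 were abundant, with a mean share of at least 100 ppm, and 112 reached 1000 ppm. Another 6432 lay between 10 and 100 ppm, and 3253 below 10. The median level was 532 normalised counts per kb over the genes on and 81.7 over all protein-coding genes. At the limit, HHAT, PITPNM2 and NKD1 were just inside, with 1.00 ppm in their lower library, and DQX1 and TAS2R5 just outside, with 0.999 and 0.998. Long noncoding RNAs were on less often, with 1453 of 16739 genes on (8.68%), 3113 at trace level and 12173 absent. These shares of all genes are the background for every list named here. Fewer cells expressing a gene and less RNA per cell cannot be told apart in bulk libraries.

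The 2 libraries gave nearly the same ranking. Over the 11190 genes on, the ratio of library 2 to library 1 had a median of 1.04 and lay between 0.905 and 1.15 for the middle 90%, and the median coefficient of variation was 3.70%. Only 38 genes differed by more than 1.5-fold. The top 100 protein-coding genes of library 1 were the top 100 of library 2, and 987 of the top 1000 were shared. The 5 genes on with the largest ratio had few reads: RNASEK had 31 and 16, OAZ3 47 and 26, LGALS7B 14 and 29, FREY1 10 and 20, and SPATC1L, the deepest of them, 85 and 187.

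The transcripts of the mitochondrial genome stood apart from this agreement. All 13 of its protein-coding genes were lower in library 2, with ratios between 0.694 and 0.769, while the 72 nuclear genes of respiratory chain subunits that were on had a median ratio of 1.06. Of the 18 abundant genes that differed by more than 1.2-fold, 13 were mitochondrial. Genes of the mitochondrial chromosome, ribosomal RNA included, took 3.83% of the reads of library 1 and 2.72% of those of library 2.

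**Figure D1:**
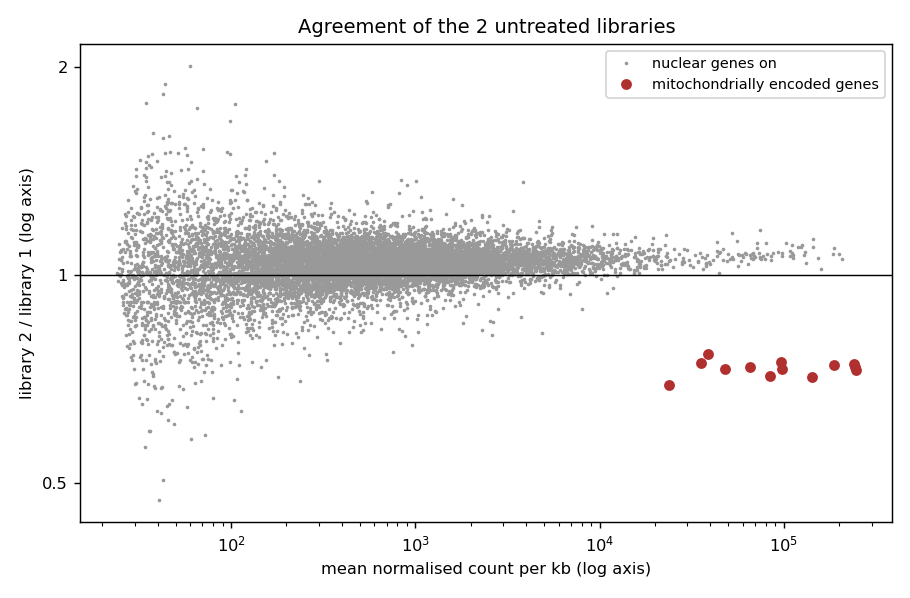
Ratio of library 2 to library 1 (vertical, log axis) against the mean normalised count per kb (horizontal, log axis) for the 11190 protein-coding genes on in untreated HT29 cells. Each point is a gene; the 13 mitochondrially encoded genes, in red, sit between 0.694 and 0.769, below the band of nuclear genes around 1.04.

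RNA was concentrated in few genes. The 10 highest protein-coding genes held 9.63% and 8.42% of the summed protein-coding level, the top 100 held 37.6% and 36.5%, and the top 1000 held 67.5% and 67.1%. Without scaling by length, the top 100 held 18.1% and 17.5% of the protein-coding reads. The canonical transcripts of the top 100 were short, with a median of 904 bases against 3272 over the genes on. Of the top 100, 52 encode cytosolic ribosomal proteins, 12 are mitochondrial and 36 are neither.

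Subunits of cytochrome c oxidase, the last enzyme of the respiratory chain, led the ranking. MT-CO1 stood at 283772 and 206487 normalised counts per kb (mean 245129 ± 54649, SD, n = 2), MT-CO2 at 278809.9 and 205334 and MT-CO3 at 276428 and 205178. They were ranks 1 to 3 in library 1 and 3 to 5 in library 2, where TMSB10 came first. TMSB10, a thymosin that binds actin monomers, had 200298 and 211344. The order of these genes thus changed between the libraries, while the 3 oxidase subunits kept their order in both, lying close together within each library. MT-ND4 of complex I (215686 and 159956) and MT-ATP6 of ATP synthase (166983 and 118830.1) completed the mitochondrial genes of the top 25.

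Translation filled most of the other high ranks. EEF1A1, which brings aminoacyl-tRNA to the ribosome, had 177292 and 190390.4 normalised counts per kb, RPL13A of the large subunit 179231 and 195846 and RPLP0 of its stalk 148394 and 157228. RPS2 had 134981 and 152095, RPL7A 128809.7 and 133838, RPS18 124929 and 134772, RPS24 124538 and 133063 and RPS16 117480.5 and 129006. RPL21, RPL8, RPLP2, RPL3 and RPS27 followed at ranks 19, 20, 22, 23 and 24, between 108100 and 120181 on the mean. Some of these places depend on the transcript length. RPS24 moved from rank 16 to 153 with the union of exons and to 91 with the longest transcript, and RPS16 from 18 to 45 and 67. Of 86 genes named as cytosolic ribosomal proteins, 81 were on, with a median of 56685 over those on, and together they made 18.7% and 19.7% of the summed level of all genes. Many of these genes have processed pseudogenes, how multiply mapped reads were counted is not given, and shared reads were not measured, so their values are uncertain. Other members of the top 25 were FTL, the light chain of the iron store ferritin, with 157399 and 160598, S100A6, a calcium-binding protein, with 138020.5 and 151701, the cytoplasmic actins ACTG1 with 120009.8 and 132473 and ACTB with 108046 and 115318, and KRT8, a keratin of simple epithelia, with 103541 and 112248.

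The 36 other genes of the top 100 included genes of the cytoskeleton, glycolysis and redox defence. KRT18, the partner of KRT8, had 82719 and 86956. LGALS4, a galectin made in the gut, had 47809 and 50048, and LYZ, the antibacterial lysozyme, 43020.5 and 46267. Genes of the S100 family were among them, S100A6, S100A10 (45679 and 47951), S100A4 (41542 and 44952), S100A11 (38243 and 39985) and S100P (36518 and 38628), of 12 S100 genes on among 19. HMGA1, a chromatin protein known to be high in colorectal tumours, had 50541 and 53578 and ANXA2, a membrane-binding annexin, 49465 and 52163. GSTP1, which couples glutathione to toxic compounds, had 44684 and 48652 and GPX2, the gut glutathione peroxidase, 37210.5 and 39813.

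Many genes at the top, ribosomal protein genes above all, share a feature of their promoters that the ranking did not use. RefSeq gives 300-base windows, from 250 bases before to 50 after a start (build GRCh38.p14), for 15328 of the 19892 protein-coding genes, and in 14629 the start lay within 50 bases of that of the canonical transcript. In 50 of 63 windows of ribosomal protein genes on (79.4%), a C followed by at least 4 bases that were each C or T began within 2 bases of the start, against 42 of 69 windows of the top 100 (60.9%), 10 of 29 of the top 100 without ribosomal protein genes (34.5%) and 11.5% of all 14629. Transcripts that begin with such a run are called TOP mRNAs and are known for translation controlled by mTOR. High-ranked genes with this start are shown, from 40 bases before the start to 10 after it, with the run in capitals, because they stand at ranks 7, 8, 10 and 11 and hold the same kind of start:
RPL13A: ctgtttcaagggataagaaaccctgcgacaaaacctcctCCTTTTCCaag
EEF1A1: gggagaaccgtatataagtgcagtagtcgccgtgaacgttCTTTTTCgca
RPLP0: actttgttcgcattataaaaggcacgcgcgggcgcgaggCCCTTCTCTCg
S100A6: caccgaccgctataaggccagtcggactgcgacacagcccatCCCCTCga
They lie at chr19:49487568-49487617 (plus strand), chr6:73521023-73521072 (minus strand), chr12:120201102-120201151 (minus strand) and chr1:153535982-153536031 (minus strand). S100A6 encodes no ribosomal protein. A match describes letters at the annotated start and not a mapped transcript end.

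CpG content followed the classes. The ratio of observed to expected CpG, in which 1 means as many CG pairs as the base composition would give, had a median of 0.864 in windows of the 8787 genes on, 0.657 in 2055 at trace level and 0.366 in 3787 absent genes. A ratio above 0.6 was found in 88.5%, 54.0% and 35.5% of them, against 69.9% of all windows. The letters TATAAA, read on both strands between 40 and 16 bases before the start, were rarer in windows of genes on (2.19%) than in absent genes (9.14%), with 4.42% over all windows. Windows of the top 100 held the letters in 8 of 69 (11.6%), and without ribosomal protein genes in 5 of 29 (17.2%). Genes of the intestinal lineage lists (intestinal transcription factors, absorptive, goblet, keratin and Paneth lists) that were on also differed from all genes on. Of their windows 8 of 39 held the letters (20.5%), and their median CpG ratio was 0.420. The highest-ranked of them with TATAAA on the gene's strand are shown over the same 50 bases, with the letters in capitals, since few windows of genes on hold these letters:
MMP7: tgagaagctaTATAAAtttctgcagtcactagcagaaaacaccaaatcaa
ELF3: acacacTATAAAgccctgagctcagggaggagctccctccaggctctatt
SPINK4: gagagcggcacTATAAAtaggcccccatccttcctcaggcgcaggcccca
FOXA3: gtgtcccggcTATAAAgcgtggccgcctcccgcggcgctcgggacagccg
They lie at chr11:102530738-102530787 (minus strand), chr1:202010547-202010596 (plus strand), chr9:33240127-33240176 (plus strand) and chr19:45864286-45864335 (plus strand). MMP7 is a matrix protease, ELF3 an epithelial ETS factor, SPINK4 a goblet cell peptide and FOXA3 a forkhead factor of endoderm. These shares are descriptions without a test, and a window without the letters says nothing about the factor that binds them.

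The 45 lists of genes by role hold 1095 different genes, of which 692 were on. Single lists ran from none on to all on, around the background of 56.3%.

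The cells were epithelial by their markers. Of 16 markers of colon epithelium 14 were on, and the remaining 2, CDX1 among them, were at trace level. EPCAM, a surface adhesion protein of epithelia, had 17053 and 18067 normalised counts per kb, KRT19 14124 and 15338, KRT20, a keratin of differentiated gut epithelium, 5632 and 5926, CDH1, the E-cadherin of adherens junctions, 4465 and 4712, and VIL1, the microvillus protein villin, 1644 and 1729. CEACAM5, the carcinoembryonic antigen, was lower with 141 and 153, as were CDH17, an intestinal cadherin, with 83.7 and 83.7 and GPA33 with 30.6 and 29.5. The markers on thus ranged widely, from GPA33 near the limit to KRT8, and gut genes stood at both ends, since LGALS4 was the third highest of them.

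All 35 members of the adhesion and junction list were on, with a median of 1220 normalised counts per kb. CLDN4, a tight junction claudin, had 8682 and 9572, JUP, the plakoglobin of desmosomes and adherens junctions, 7853 and 8654, CLDN7 5389 and 5788 and ESRP1, an epithelial splicing factor, 5181 and 5486. CTNNB1, the beta-catenin of junctions and WNT signalling, had 3284 and 3429.9. Of all 24 claudins 9 were on. CTNND1 was low with 194 and 192, and 39.1% of its exonic bases overlap another gene on the same strand, whose part in this value was not tested.

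The highest keratins were those of simple and gut epithelium. Of 18 listed 11 were on (61.1%), and KRT8, KRT18, KRT19 and KRT20 led, followed by KRT80 (2575 and 2933) and KRT17 (611 and 711). The other keratins on, KRT10, KRT15, KRT13, KRT7 and KRT23, lay between 59.7 and 351 on the mean. KRT16 and KRT4 were at trace level. KRT5 and KRT14, which pair in the basal cells of skin, had 0 and 1 and 1 and 0 reads, KRT6B had 2 and 0, and KRT1 and KRT6A had none. With TP63, the master factor of squamous epithelium, at 2 and 3 reads, these genes were absent at this depth, while KRT17, KRT15 and KRT13, also known from basal or stratified epithelium, were on.

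Markers of other cell types were mostly absent or at trace level. PTPRC, the CD45 of all leukocytes, CD3D of T cells, MS4A1 of B cells, and the mast cell genes KIT, TPSAB1, CPA3 and FCER1A had none, as had the collagen genes COL1A2 and COL3A1, PDGFRA of fibroblasts, CDH5 and KDR of endothelium, and SNAP25 and SOX10 of neural and glial cells. No fibroblast marker of 12 and no muscle marker of 12 was on. Their summed levels were 35.7 and 34.2 for fibroblast markers and 18.8 and 26.9 for muscle markers. Exceptions were named genes rather than whole programs. Of 17 leukocyte markers CD14 (75.8 and 87.5) and CD79A (61.0 and 55.8) were on, of 10 endothelial markers ESAM (1084 and 1217), and of 12 neural and glial markers MBP (1062 and 1177). Of 13 markers of hepatocytes and exocrine pancreas 3 were on: SERPINA1, the protease inhibitor antitrypsin, with 3873 and 3989.6, PRSS1, a trypsinogen with near-identical copies in the genome, with 772 and 843, and TTR with 94.8 and 83.4, while ALB, the albumin gene, had 1 and 0 reads. CD68 had 0 and 1 reads, but 81.6% of its exonic bases overlap a neighbour on the same strand.

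**Figure D2:**
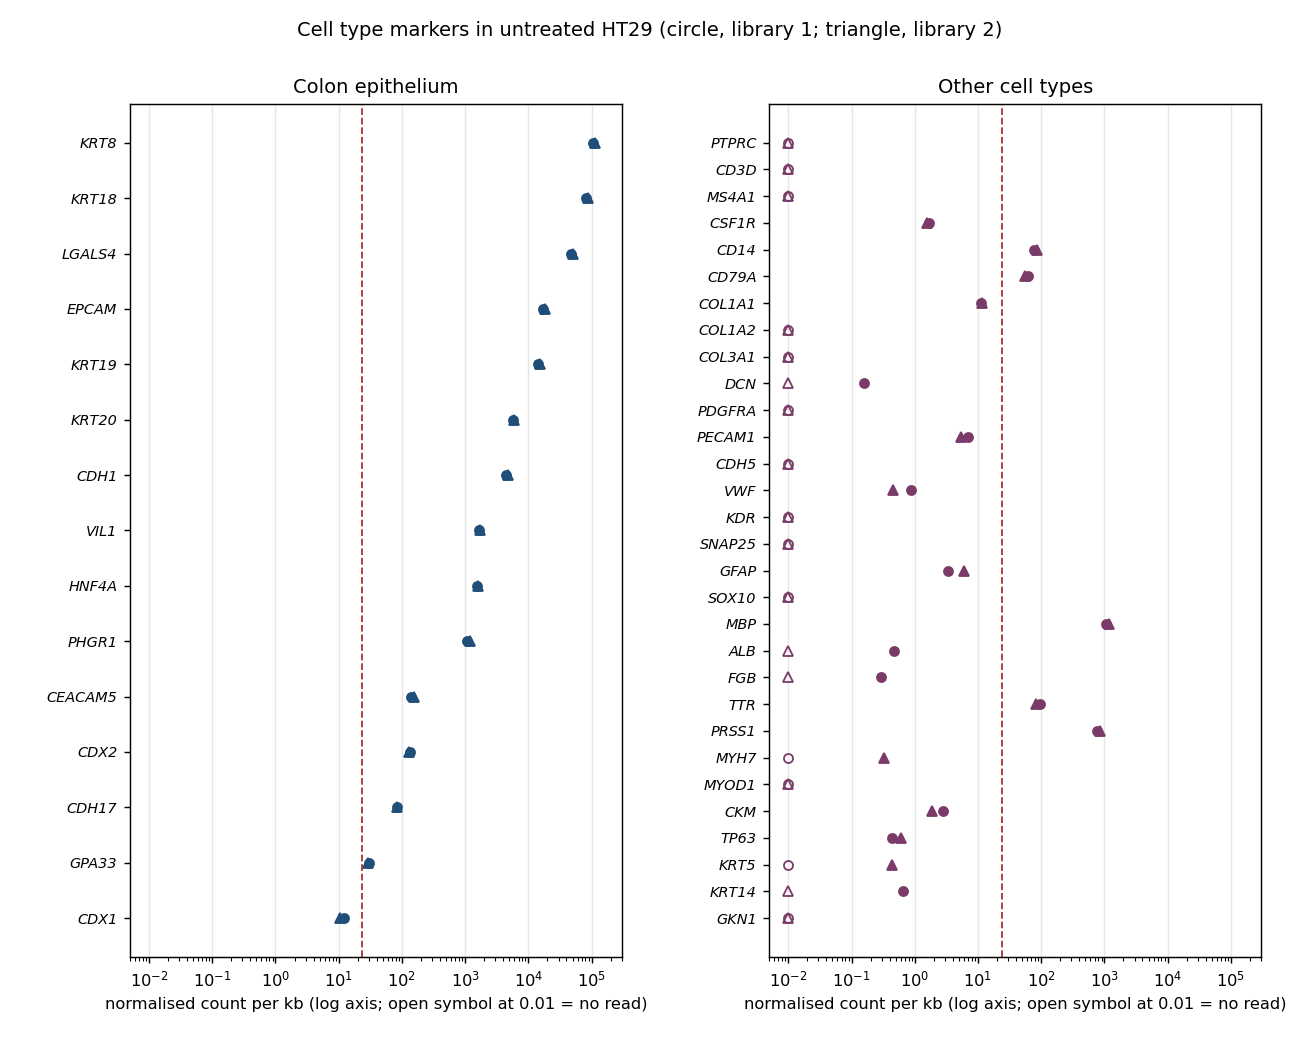
Levels of colon epithelium markers (left) and markers of other cell types (right) in normalised counts per kb on a log axis; circles are library 1, triangles library 2, open symbols at the left edge are genes without a read, and the dashed line is 1 ppm. On the left every plotted marker but CDX1 lies right of the line, and on the right only CD14, CD79A, MBP, TTR and PRSS1 do.

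Of 37 intestinal transcription factors 29 were on (78.4%), 6 were at trace level and 2 had no read. KLF5, a factor of proliferating crypt cells, was the highest with 7790.2 and 8142 normalised counts per kb, followed by the ETS factor EHF with 3017 and 3076, SOX9 of crypt progenitors with 2599 and 2816, ELF3 with 2457 and 2602 and FOXA1, which opens chromatin in endoderm, with 1632 and 1767. HNF4A, a nuclear receptor of gut and liver, had 1524 and 1577, more than its paralog HNF4G with 725 and 769.7. HNF4A led HNF4G in both libraries and under every choice of transcript length.

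Members of the CDX and GATA groups differed widely. CDX2, the homeobox factor that sets intestinal identity, was on with 135 and 132, at rank 9209 of 19892. CDX1 was at trace level with 12.2 and 10.6 (20 and 19 reads), and CDX4 had no read. GATA6 had 395 and 429, while GATA4 and GATA5 had no read in both libraries. ATOH1, the switch to the secretory lineage, was on with 86.6 and 109.9 and SPDEF, which matures goblet cells, with 766 and 934. HES1, the NOTCH target that opposes ATOH1, had 782 and 866.

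The list of absorptive cells was on in a smaller share (34.2%) than all protein-coding genes (56.3%). Of 38 listed genes 13 were on, 13 were at trace level and 12 were absent, with a median of 6.43 normalised counts per kb. Among those on were genes of the brush border scaffold, EPS8L3 (2908 and 2739), USH1C (2147 and 2169), PLS1 (1751 and 1853) and VIL1, besides LGALS4. DPP4, a brush border peptidase, had 899 and 955 and SLC5A1, the sodium-glucose transporter, 252 and 255. FABP1, a fatty acid carrier that is among the most abundant mRNAs of enterocytes, had only 60.5 and 49.3, and CA2, a carbonic anhydrase, 47.1 and 46.8. SLC26A3, the chloride exchanger of the colon surface, had 3 and 0 reads, AQP8, a water channel, 0 and 1 and ALPI, the intestinal alkaline phosphatase, 3 and 0. MS4A12, APOB, APOA4 and TMIGD1 had none.

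Of the 30 members of the goblet and secreted list 21 were on (70.0%), 6 were at trace level and 3 were absent. The list also holds SCNN1A, a sodium channel subunit that was on, and shares LYZ with the Paneth list. LYZ led, followed by the trypsin inhibitor SPINK1 with 14543 and 16528, AGR2, a disulfide isomerase that folds mucins, with 13987 and 14405, and GCNT3, which branches mucin sugars, with 5456 and 5766. CREB3L1, a secretory cell factor of the endoplasmic reticulum, had 2952 and 3166, and SPINK4 1583 and 1590.1. The gel-forming mucins themselves were low per kb, with MUC2 at 179 and 172 and MUC5AC at 129 and 139, and the trefoil peptide TFF3 stood at 403 and 451. MUC5B and MUC6 were at trace level, and CLCA1, ITLN1 and ZG16, products of mature colonic goblet cells, had 2 and 0, 0 and 1 and 1 and 2 reads. AGR2 and GCNT3 thus ranked above both mucins per kb. Of 10 membrane mucins 4 were on, led by MUC13 (2265 and 2289), with MUC1 at 87.8 and 94.4.

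Paneth, endocrine and tuft genes were sparse. Of 16 Paneth and antimicrobial genes 4 were on, LYZ, LCN2 (14991 and 15930.4), which binds bacterial iron carriers, MMP7 (3461 and 3689.9) and DEFB1 (34.6 and 44.8), whereas DEFA5, REG1A and REG3A had no read and DEFA6 had 0 and 1. Of 27 enteroendocrine genes 2 were on: NEUROG3, the factor that starts the endocrine lineage, with 61.0 and 67.2, and the vesicle protein SYP with 24.1 and 31.0, at the limit. This count was 1 with the longest transcript as length or at 2 ppm and 4 at 0.5 ppm. The hormone genes GCG and SST and the factor NEUROD1 had no read, and CHGA, the granule protein chromogranin, had 3 and 3. Of 14 tuft cell genes 4 were on, led by ALOX5 (331 and 357), and DCLK1 had no read.

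The secretory pathway that these products use was on in full. All 37 listed genes were on, with a median of 6366 normalised counts per kb against 81.7 over all protein-coding genes. SSR4 of the translocon had 18745 and 20347, RPN2 of the glycosylating enzyme 16432 and 16866, P4HB, a disulfide isomerase, 16323 and 16409.6, KDELR1, which returns chaperones to the endoplasmic reticulum, 15278 and 15518, and CANX, the chaperone calnexin, 14322 and 14627. XBP1, a factor of secretory cells, had 11119.7 and 11890.1. The lowest member, KDELR3, had 667 and 642, still above the median of the genes on. Of 18 GALNT enzymes, which start mucin-type sugars, 9 were on, led by GALNT14 and GALNT3 (1175 and 1159.7 on the mean).

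Genes of stem cells and WNT targets were on for the most part, 24 of 33. CD44, a hyaluronan receptor, had 4463 and 4573 normalised counts per kb, MYC 3937 and 4221, CDCA7 2641 and 2548 and CCND1, a cyclin of G1, 1794 and 1908. LGR4, an R-spondin receptor, had 1498 and 1513, more than LGR5, the marker of crypt base stem cells, with 165 and 165. AXIN2, a feedback target of beta-catenin, had 387 and 389, ZNRF3 714 and 765 and ASCL2, a stem cell factor, 196 and 228. OLFM4, another crypt base gene, had 0 and 1 reads, and LEF1, APCDD1, MSI1, SFRP1 and WIF1 had none. Within the factors that bind beta-catenin, TCF7L2 (1183 and 1173) and TCF7 (1062 and 1112) were on, while TCF7L1 was at 13.4 and 12.2 and LEF1 at 0.

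Of 19 WNT ligands 4 were on, and all were low: WNT10A had 307 and 390.5, WNT7B 299 and 318, WNT11 171 and 205 and WNT3 28.0 and 24.7. WNT2B (12.3 and 10.9), WNT10B (13.0 and 8.36), WNT8B (5.05 and 9.22), WNT4 (8.18 and 4.48), WNT6 (5.03 and 1.72) and WNT16 (1.37 and 1.57) were at trace level. WNT1, WNT5B, WNT3A, WNT7A and WNT2 were absent with at most 3 reads in each library, and WNT5A, WNT9B, WNT8A and WNT9A had no read. Of 31 receptors and core components 25 were on, led by CTNNB1, the coreceptor LRP5 (3172 and 3479.8), WLS, which carries WNT proteins to the surface (2759.9 and 2939), and the kinase GSK3A (2372 and 2420.4). APC, the brake on beta-catenin, had 288 and 303. The list of receptors and core components, which also holds WLS and PORCN of ligand secretion, was thus on at 80.6% and the ligands at 21.1%, with 56.3% as the background.

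The RAS to ERK pathway was on nearly in full, with 33 of 35 members on and none absent. Per kb of the canonical transcript HRAS had 2420.5 and 2745 and NRAS 1450.4 and 1554. This order depends on the transcript chosen: with union exons or the longest transcript as the length, and without scaling by length, NRAS was above HRAS. Among the RAF kinases ARAF had 2139 and 2213 and BRAF 306 and 333, and this order was kept under every length choice. ETV4, an ETS factor induced by ERK, had 3312 and 3469 and was the highest of the list. The ERK feedback genes DUSP6 and SPRY4 were on with 866 and 908 and with 777 and 751, and FOSL1, an AP-1 subunit induced by ERK, had 1241 and 1247. The lead of MAP2K2 over MAP2K1 changed with the length as well.

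Receptor tyrosine kinases were split, with 28 of 58 on and 22 absent, 15 of them without a read. ERBB3 had 4143 and 4255, MET, the receptor of hepatocyte growth factor, 3894 and 4153, EPHB4 3693 and 4058, EPHA2 3579 and 3743 and ERBB2 2690.0 and 2718. EGFR was lower with 501 and 562, and ERBB4 had no read, an order that held in both libraries and under each length choice. FGFR4 was the leading FGF receptor with 2013 and 2124, and FGFR1 was at trace level with 4.94 and 3.47. KIT, PDGFRA, KDR, RET, ROS1 and NTRK2 had no read. Among secreted factors 22 of 38 were on (57.9%, near the background of 56.3%). GDF15, a stress-induced cytokine, had 6789 and 7755, and the EGFR ligands AREG and EREG 5060.2 and 5879.9 and 1773 and 1873. MDK, the growth factor midkine, had 2727 and 2995 and VEGFA, which drives vessel growth, 2963 and 2645. IL6, IGF1, CCL2, VEGFC and PTN had no read.

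PI3K, TGF-beta, survival and cell cycle genes were largely on. Of 25 PI3K and mTOR genes 21 were on, led by EIF4EBP1, a brake on translation that mTOR releases, with 6478 and 7259.6. The small GTPase RHEB had 3124 and 3422, AKT2 2620.1 and 2687 and AKT1 2071 and 2106. PIK3R2 had 3 and 3 reads, with 76.4% of its exonic bases overlapping another gene on the same strand. Of 25 TGF-beta genes 19 were on, with BMP4 at 7334 and 7722, TGFBR2 at 1955 and 1997 and SMAD3 at 1484 and 1536, whereas SMAD4, the shared mediator, was low with 74.0 and 64.6.

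Of 38 cell cycle genes 34 were on. PCNA, the replication clamp, had 5862 and 5771, TOP2A, a topoisomerase of dividing cells, 4869.7 and 5123 and CCNB1, the mitotic cyclin, 4718 and 5051. CDKN2A, the locus of the inhibitors p16 and ARF, had 3816 and 4096. MYC far exceeded MYCL with 106 and 122, and MYCN had 1 and 0 reads. Of the D cyclins CCND1 and CCND3 (1035 and 1068) were on, and CCND2 was at trace level with 0 and 4 reads. All 12 members of the mismatch repair list were on, with a median of 416 normalised counts per kb. The list also holds MGMT and MUTYH of other repair paths and the DNA polymerases POLD1 and POLE. Of 27 death and survival genes 25 were on, with the killer BAX at 7185 and 7629 and the protectors BCL2L1 at 5753 and 6192 and MCL1 at 4898 and 5219.6. BCL2 itself was at trace level (12.1 and 10.5), and BCL2A1 had no read.

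Nuclear receptors were on at the background rate, 27 of 48. RARG, a retinoic acid receptor, had 2556 and 2748, PPARG 1909 and 2079.6, ESRRA 1742 and 1888, HNF4A as above and NR1H3, an oxysterol receptor, 1331 and 1448. Among receptors of steroid hormones NR3C2, the mineralocorticoid receptor, was on with 29.5 and 37.7, ESR2 was at trace level with 3.32 and 3.32, PGR had no read, ESR1 was at trace level with 3 and 7 reads and NR3C1, the glucocorticoid receptor, had 0 and 1 reads. NR3C1 lies at chr5:143277931-143435512 on the minus strand, shares 0% of its exonic bases with another gene on its strand, and is expressed in most human tissues. Its promoter window is rich in CpG, as those of genes on mostly are, and is set beside that of KRT20, which ranked 530 and has few CpG. The 100 bases before each start are shown with every CG pair in capitals:
NR3C1: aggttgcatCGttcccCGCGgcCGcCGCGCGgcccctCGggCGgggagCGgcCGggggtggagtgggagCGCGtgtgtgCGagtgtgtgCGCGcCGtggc
KRT20: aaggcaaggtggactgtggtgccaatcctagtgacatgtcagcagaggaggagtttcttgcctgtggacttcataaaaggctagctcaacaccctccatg
They lie at chr5:143403687-143403786 (minus strand) and chr17:40885243-40885342 (minus strand). The whole 300-base windows hold 51 CG pairs at a ratio of 1.02 in NR3C1 and 2 at 0.138 in KRT20. Of the 2 genes, the absent gene thus has a window of the kind more common among genes on.

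HOX genes, whose position along a cluster is read out along the body axis, showed a choice between clusters. Of 39 genes 24 were on (61.5%, near the background of 56.3%). In the HOXA cluster on chromosome 7, 10 of 11 were on, in HOXB on chromosome 17, 9 of 10, in HOXC on chromosome 12, 5 of 9, and in HOXD on chromosome 2 none of 9. HOXB9 was the highest with 6345 and 6577, followed by HOXB7 (1096 and 1183), HOXB6 (1013 and 923), HOXB3 (918 and 815), HOXB5 (748 and 677) and HOXB8 (600.1 and 635). The summed level was 11251 and 11348 for HOXB, 2805 and 2864 for HOXA, 677 and 725 for HOXC, and 3.48 and 5.40 for HOXD.

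In HOXA, HOXA11 (536 and 547), HOXA13 (462 and 466), HOXA10 (440.2 and 457), HOXA9 (366 and 370.1), HOXA5 (323 and 356) and HOXA3 (280.3 and 285) led. HOXA6, HOXA2 and HOXA7 were lower, from 35.2 to 149 on the mean, and HOXA4 was at trace level with 10.3 and 8.20. In HOXB, HOXB4 had 301 and 281, HOXB13 145 and 163 and HOXB2 84.9 and 94.0, and HOXB1 had 1 and 0 reads. HOXC6 led its cluster with 389.9 and 432, HOXC13 had 116 and 115, and HOXC4, HOXC8 and HOXC9 lay from 38.3 to 56.8. HOXC5, HOXC10, HOXC11 and HOXC12 were at trace level. In HOXD, HOXD13 had 5 and 10 reads, HOXD8 3 and 2, HOXD10 0 and 1, and the other 6 genes none.

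**Figure D3:**
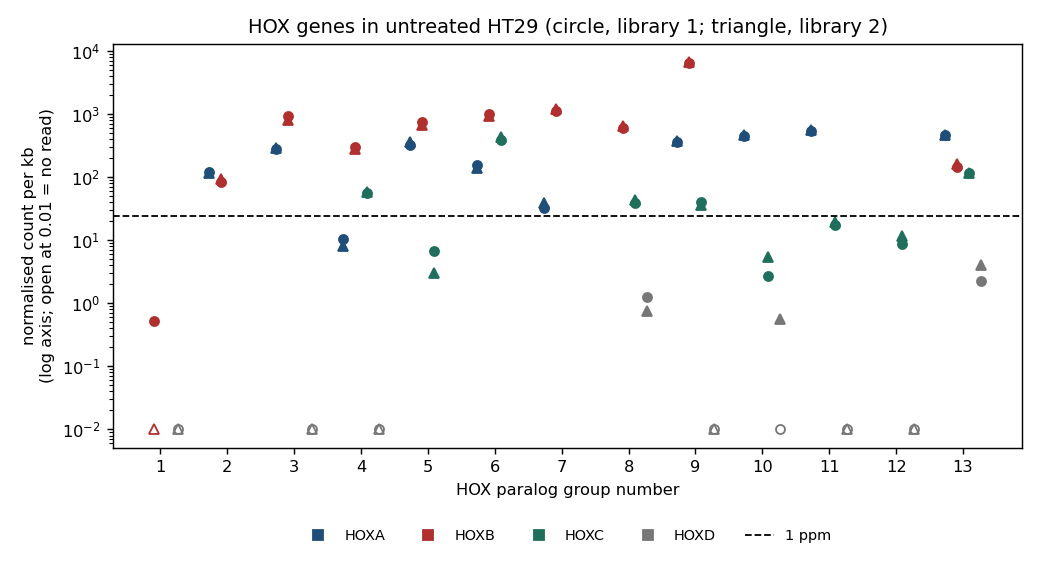
Level of HOX genes in normalised counts per kb (log axis) by paralog group number, coloured by cluster; circles are library 1, triangles library 2, open symbols are genes without a read, and the dashed line is 1 ppm. HOXB9 is the highest at 6461 on the mean, and every HOXD gene lies below the line.

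By summed level (253263 and 263166 normalised counts per kb) glycolysis was among the most abundant metabolic programs, and at several steps 1 isoform held nearly all of the level. A few genes carried this sum, and the median of the list was 509, below the 2236 of the TCA cycle list. Of 33 genes 24 were on, 3 were at trace level and 6 were absent. GAPDH had 76567 and 80881 normalised counts per kb, ENO1 55471 and 57215, PKM 37402 and 38481, TPI1 30572 and 31625 and LDHA 17232 and 17642. Each was far above its relatives: ENO1 made 98.6% and 98.8% of the enolase level, beside ENO2 (511 and 462) and ENO3 (251 and 229), PKM nearly all of the pyruvate kinase level, with PKLR at 2 and 1 reads, and LDHA 96.3% and 96.1% of the lactate dehydrogenase level, with LDHB at 663 and 714 and LDHC at 0 and 0.486. The exons of LDHB overlap another gene on the same strand over 33.4% of their bases, and the part of this in its level was not tested.

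The hexokinases were shared between 3 genes. HK1 had 2059 and 2152, HKDC1, a hexokinase-like enzyme of gut and liver, 993 and 1127 and HK2, often high in tumours, 517 and 544, while HK3 was at 2.46 and 0. HK1 held 57.6% and 56.3% of the group. Phosphofructokinase was even more evenly split, PFKP with 2768 and 2906, PFKM with 2155 and 2133 and PFKL with 1707 and 1812. ALDOA, the main aldolase of most cells, stood at only 382 and 433, beside ALDOC with 215 and 239, and 42.8% of its exonic bases overlap another gene on the same strand, the part of which in the value was not tested. SLC2A1, the basal glucose transporter, had 6633 and 7121 and held 93.0% and 93.6% of the 14 facilitative transporters.

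The other glucose transporters were low. SLC5A1 had 252 and 255, SLC2A8 246 and 251, SLC2A11 96.0 and 83.5 and SLC2A12 43.5 and 46.3, and SLC2A13 (29.2 and 26.4) and SLC2A10 (25.6 and 26) were on near the limit. SLC2A9 (33.1 and 21.2), SLC2A6 (22.6 and 27.0), SLC2A4 (2.24 and 1.46), SLC5A2 (0.954 and 2.62) and SLC2A2 (1.36 and 1.55) were at trace level. SLC2A7 had 3 and 1 reads, SLC2A5, the fructose transporter, 1 and 1, and SLC2A3 and SLC2A14 none. Over 36 groups of paralogs, the same member led in both libraries in all 36 and under every length choice in 30, and in 14 the leading member held over 90% of the group.

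**Figure D4:**
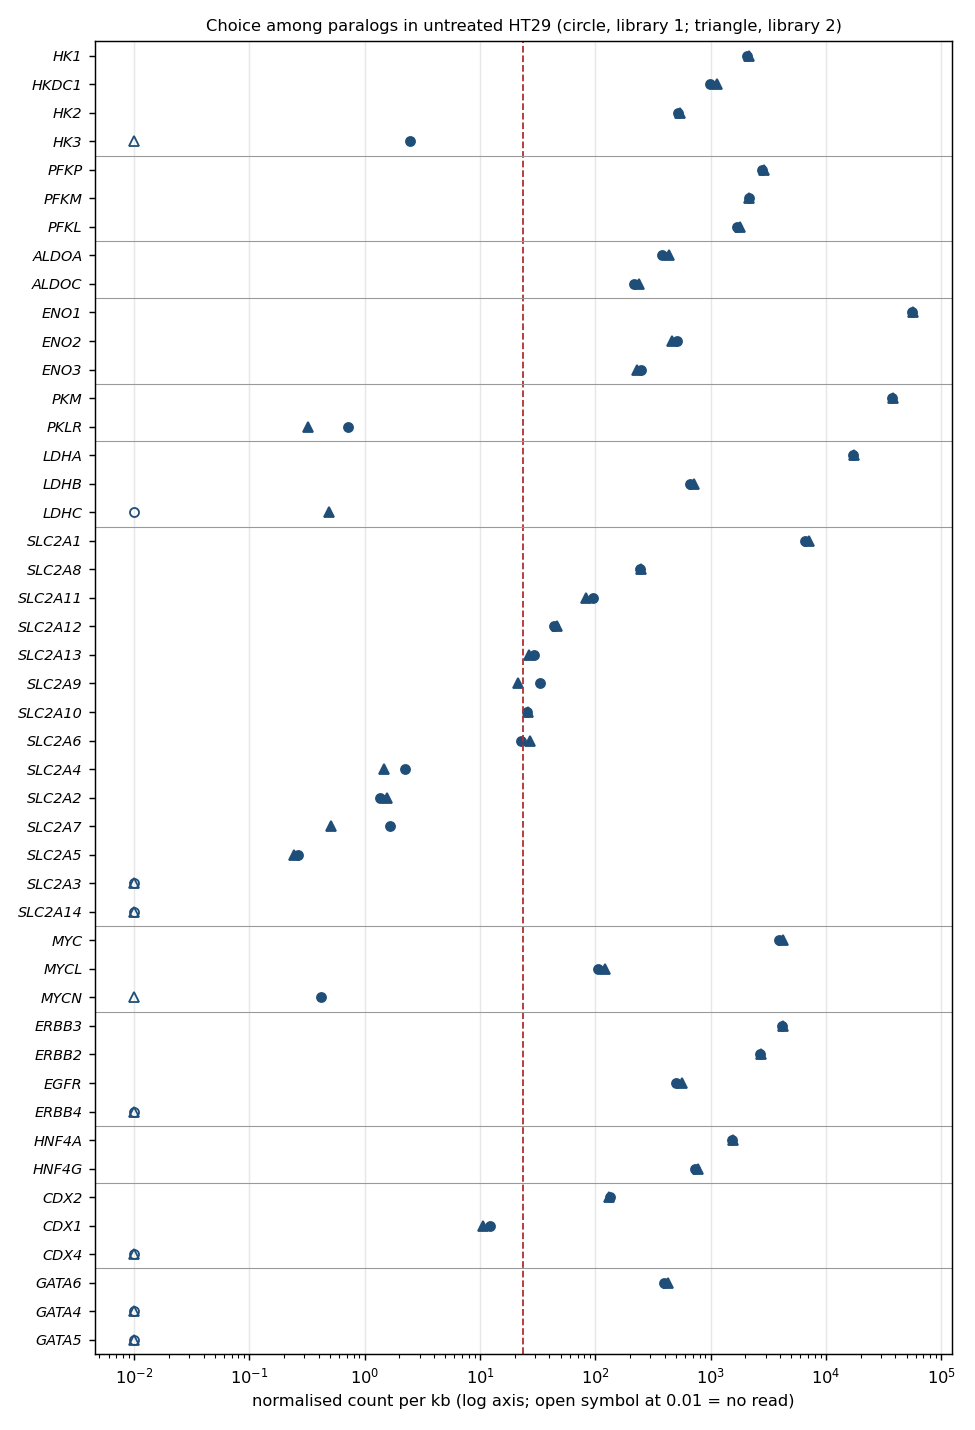
Levels of members of 12 paralog groups in normalised counts per kb (log axis), separated by lines, each ordered by mean level; circles are library 1, triangles library 2, open symbols are genes without a read, and the dashed line is 1 ppm. ENO1, PKM, LDHA, SLC2A1 and MYC stand far right of their relatives, whereas the leading hexokinases and the phosphofructokinases lie close together.

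Lists of mitochondrial and lipid metabolism were on in larger shares than all genes. All 28 TCA cycle genes were on, with a median of 2236, led by MDH2 (8649 and 9182) and CS, the citrate synthase (6789.7 and 7110.1). The pentose phosphate pathway had 7 of 8 on, with TALDO1 at 18162 and 19291 and TKT at 13744 and 14757. Of 29 genes of fatty acid and cholesterol synthesis 25 were on: SCD, which desaturates fatty acids, had 13809 and 14285, FDFT1 and SQLE of sterol synthesis 6912 and 7029 and 6218 and 6023, and FASN, the fatty acid synthase, 1456 and 1595. FADS1 and FADS2, the desaturases of polyunsaturated fatty acids, were at trace level with 19.1 and 19.2 and 6.30 and 9.27, and ELOVL5, which elongates them, had 1 and 1 reads without any same-strand overlap. Of 21 genes of fatty acid oxidation and ketone bodies 17 were on, with ECHS1 highest (7142 and 7425), and OXCT1, needed to use ketone bodies, was at trace level (10.8 and 6.0). Of 16 genes of gluconeogenesis and glycogen 10 were on (62.5%, near the background of 56.3%). The mitochondrial PCK2 had 3961 and 4313 where the cytosolic PCK1 had 1.75 and 2.52, and G6PC1, which releases glucose, had no read.

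Of 23 genes of amino acid synthesis 19 were on (82.6%). The serine and glycine enzymes PSAT1 (11281 and 12248), SHMT2 (11204 and 12215) and PHGDH (5258 and 5690.2) were high, GPT2, an alanine aminotransferase, had 5307 and 5682, and ALDH18A1, of proline synthesis, 4594 and 4785. ASNS, the asparagine synthetase, stood at 189 and 166, with 49.3% same-strand overlap. OTC of the urea cycle had no read, and CBS had 1 and 0 reads, a gene with a near-identical copy in this genome build. Of 26 transporters 16 were on (61.5%, near the background of 56.3%), led by SLC1A5 (16157 and 16779), the glutamine carrier, and by SLC3A2 (10948 and 11398) and SLC7A5 (8977 and 9783), which form the carrier of large neutral amino acids, histidine and tryptophan included.

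Breakdown of essential amino acids was the metabolic list furthest below the background, with 5 of 22 on (22.7%). BCAT2 (1629 and 1558), HGD (582 and 591), BCKDHB (505 and 576), DDC (519 and 529) and GCDH (495 and 531) were on. The histidine enzymes HAL and HDC, which make urocanate and histamine, were at trace level with 25 and 21 and 2 and 7 reads, and UROC1 had 3 and 5. Of the enzymes that open the tryptophan ring, IDO1 and IDO2 had no read and TDO2 0 and 4, and KYNU, further down that path, was at trace level with 15.5 and 16.8. BCAT1 had no read, and BCAT2 held the whole level of the pair.

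The listed genes of wobble uridine modification and tRNA charging were on in full. A list added after the values were seen covers wobble uridine modification and charging with histidine, glutamine and tryptophan. It also holds the kinase gene EIF2AK4. All 21 genes were on, against 56.3% of all protein-coding genes, with a median of 640. URM1, the sulfur carrier for thiolation of wobble uridine, had 2192 and 2260.3. CTU1 and CTU2 of the tRNA thiolation complex had 167 and 201 and 382 and 389. ELP3, the catalytic subunit of elongator, had 608 and 596. The synthetases QARS1, WARS1 and HARS1 had 5104 and 5268, 3776 and 4163 and 2243 and 2339.8, and the mitochondrial HARS2 1248 and 1279.8. EIF2AK4, the kinase GCN2 that senses uncharged tRNA, had 541 and 537, near the median of the genes on.

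Of 35 detoxification genes 29 were on (82.9%). Besides GSTP1 and GPX2, TXN, the thioredoxin, had 22423 and 24146, ALDH1A1, an aldehyde dehydrogenase, 18105 and 19005 and NQO1, a quinone reductase, 11236 and 11614. GSTM1 had no read. Of 30 carbonic anhydrase and ion transport genes 18 were on (60.0%, near the background), led by SLC12A2, the chloride loader of secreting crypt cells, with 5553 and 5944, beside CFTR, the chloride channel, with 978 and 1032 and KCNE3 with 1364 and 1458. CA9 and CA12, carbonic anhydrases of the cell surface, had 1969 and 1895 and 1009 and 989, while CA1 of mature colonocytes had 2 and 2 reads and the sodium channel subunits SCNN1B and SCNN1G 2 and 1 and 0 and 0, against 3248 and 3367 normalised counts per kb of SCNN1A.

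Some families were nearly silent. Of 400 olfactory receptor genes 1 was on, OR51E1, at 25.2 on the mean, and 357 had no read. Of 407 immunoglobulin and T cell receptor segments 404 were absent, of 53 clustered protocadherins 1 was on, and of 10 hemoglobins and 19 late cornified envelope genes none. No cancer-testis antigen of 27 was on, and 19 had no read, with MAGEA3 at 8.36 and 5.29 and MAGEA12 at 5.43 and 11. Zinc finger genes named ZNF were the opposite case: 354 of 508 were on (69.7%), but at a median of 167 over those on, below the 532 of all genes on. Of 39 proteasome genes 37 were on, and of 373 solute carriers 204 (54.7%), near the background.

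Same-strand overlap was more frequent among absent genes. Of the 5762 absent genes, 681 (11.8%) had over 50% of their exonic bases overlapped by another gene on the same strand, against 84 of the 11190 genes on (0.751%). How reads on both genes were counted is not given in the sources used here, and the part of overlap in these classes was not tested.

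Among genes that do not code for proteins, the mitochondrial ribosomal RNA MT-RNR2 was the highest with 100541 and 76072, followed by MTATP6P1, a nuclear copy of mitochondrial DNA, with 39090.4 and 27256. MTATP6P1 shared the lower level in library 2 with the mitochondrial genes. SNHG29, a host of small nucleolar RNAs, had 28970.1 and 31100.3, C19orf48P 23476 and 26213, MT-TP 25439 and 23457, CASC19 23581 and 23687 and GAS5 14522 and 15013. EEF1A1P5 (21110.1 and 22476) and RPL13AP25 (14746 and 15693) are processed copies of genes in the top 10, and MT-RNR1 had 23459 and 15916. In libraries of polyadenylated RNA the levels of ribosomal and transfer RNA do not give their amounts in the cell. Of long noncoding RNAs 12 were abundant, among them SNHG16 (8646 and 8892), SNHG1 (8195 and 8268), NORAD (7326 and 7821) and HOXB-AS3 (4277 and 3475), which lies in the HOXB cluster.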

How the data were processed

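RNA from HT29 cells was prepared with on-column DNase treatment and sequenced as stranded, paired-end libraries of polyadenylated RNA. The authors aligned reads with STAR 2.7.10a to GRCh38 (hg38) and counted them per gene with HTSeq 2.0.5 and gencode 38. The methods describe counting over exons of genes that code for proteins, but the deposited table also lists other gene types with counts, which are reported here as deposited. The deposited values are normalised counts, a signal that the authors obtained by dividing each library's counts by its DESeq2 size factor. Treatment of molecular identifiers, strand and multiply mapped reads in counting is not given in the sources used here. Reads were recovered as whole numbers for 100% of values within 0.001, with 1.08 and 0.988 normalised counts per read.

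Normalised counts were divided by the length of the canonical transcript in gencode 44. Of 60676 genes 60357 were matched, and the 319 others were not ranked. The shares, classes and ranks were computed with Python 3.11.15 and pandas 2.3.3, and overlaps with bedtools 2.31.1. On simulated counts for 60357 genes, 200 genes set well inside the on or the absent class were all recovered (100.0%). None was set at trace level or near a limit, so this checked the code and not calls near the limits. There is no contrast, so no test was made, and errors are the spread of 2 libraries. The members and lists were chosen with earlier results of these data known. The named genes were the 25 highest protein-coding genes, the 10 highest of other types, up to 5 of each list, choices between paralogs, markers of other cell types and the genes with the largest ratio between libraries; others named were chosen after their values were seen, as were the paralog groups. Levels under other lengths, thresholds and single libraries were computed as alternatives. The table of the tryptophan experiment was not used here. Protein features were not analysed here. Some genes among the list members and the highest ranks are counted but not reported by name here.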

Additional observations from a re-analysis of the deposited data

How the results depend on the processing

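No paired analysis was possible because the values describe 1 group and come from no test. The top 100 protein-coding genes held 37.1% of the summed level on average. After ranking again, they held 20.0% without scaling by length, 35.3% with the union of exons and 33.7% with the longest transcript as length. They held 34.0% without the mitochondrially encoded genes, an alternative chosen after seeing the data. With library 1 or library 2 left out the share was 36.5% and 37.6%. The number of genes on ranged from 10540 at 2 ppm to 11756 at 0.5 ppm, and the number absent was 4017 at 0 reads and 6883 at 10 or fewer. Of the 25 highest genes, 23 changed rank by more than their spread without scaling by length, 19 with the union of exons and 15 with the longest transcript. With library 1 left out 16 of them changed rank by more than their spread, and with library 2 left out 6. Ranks of single genes therefore depend on the length and on the library. At 0.5 ppm, enteroendocrine genes on rose from 2 to 4, tuft cell genes from 4 to 7, endothelial markers from 1 to 2, and cancer-testis antigens and fibroblast markers from 0 to 1 each. At 2 ppm, enteroendocrine genes fell to 1 and glucose transporters from 7 to 4. The longest transcript gave 1 enteroendocrine gene, and the union of exons 2 endothelial markers. Lengths came from a later gencode release than the counts, and 2 libraries limit the precision of every SD.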
